A study of Homo sapiens with 6 samples.

Results

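The G2/M and mitosis genes described here are 49 protein-coding genes that take a cell from the end of DNA replication through nuclear division to cytokinesis. They were chosen by name. The versioned Ensembl identifiers of the count tables were mapped to gene symbols, and each of the 49 symbols matched 1 identifier among the 62703 in the tables. RNA was measured in SEM, an established human line from a B-cell leukaemia (B-ALL) with a KMT2A::AFF1 fusion. The knock-down group (KD, 3 libraries) received a pair of Dicer-substrate duplexes placed on the back-splice junction of AK_8_2, a circular RNA from the fusion gene. The control group (NC, 3 libraries) received a commercial duplex with no target. Every library therefore comes from 1 cell line, transfected with the same lipid reagent in a reverse and then, 24 h later, a forward round, and no untransfected SEM cells were analysed here. The series describes its replicates as independent without saying what that covers, so each p-value measures only the spread between these samples.

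Entry into mitosis is driven by the kinase CDK1 bound to A- and B-type cyclins, which CDC25 phosphatases switch on. The kinases PLK1, AURKA and AURKB then build the spindle and correct its attachments, while the spindle checkpoint holds back the anaphase-promoting complex until all kinetochores are attached. Once the checkpoint is satisfied, that complex, with its activator CDC20, marks securin and cyclin B for destruction. Most of these genes are transcribed in late S and G2 phase by B-MYB, FOXM1 and the MuvB complex, so in a population of cells their summed RNA is known to rise with the share of dividing cells. In bulk RNA, a smaller share of cells in G2 or mitosis and less RNA per such cell cannot be told apart.

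The 6 libraries held between 14750579 and 26694160 counts in genes, and the 49 genes took between 0.776 and 0.863% of them. Replicate 1 differed from the rest in KD and in NC alike: 50.03% (KD) and 48.6% (NC) of its records met no gene feature, while the remaining 4 libraries had 11.3 to 17.3%. KD replicate 3 had 31.5% of its records aligned at more than 1 place and 6.79% of its gene counts in the mitochondrial ribosomal RNAs, against 4.70 to 17.3% and 0.293 to 1.34% in the rest. The summed level of 7 B-cell precursor markers was 1312 to 1788 CPM (counts divided by the TMM-scaled library size), led by PAX5 at 850.2 to 1258 CPM and EBF1 at 237 to 347 CPM. The others were CD79A at 130.2 to 170.0, IGLL1 at 22.8 to 37.0, VPREB1 at 9.95 to 14.5, CD79B at 4.26 to 6.46 and RAG1 at 0.393 to 3.92 CPM, the last 3 within the range of the myeloid markers LYZ (4.83 to 6.25 CPM), CSF1R (10.6 to 23.6 CPM) and MPO (0.262 to 4.39 CPM). RAG1 was at 2.14 (KD) and 3.92 CPM (NC) in replicate 1 and at most 0.63 CPM in the rest. MPO was likewise at 4.39 and 3.3 CPM there and at most 0.743 CPM in the rest, while CSF1R was lowest there (11.2 and 10.6 CPM). The 5 T-cell markers summed to 76.8 to 92.8 CPM in KD and 82.5 to 87.1 CPM in NC, of which TRAC alone gave 71.6 to 92.6 CPM, while CD3D, CD3E, CD3G and CD2 reached at most 2.61 CPM. The 5 myeloid markers summed to 23.4 to 28.7 CPM in KD and 21.5 to 29.2 CPM in NC, and the 5 erythroid markers to at most 2.59 CPM. The erythroid sum was 2.59 (KD) and 1.99 CPM (NC) in replicate 1 and at most 0.217 CPM in the rest. CD3D, CD3E, CD3G and CD2 were likewise at 0.957 to 2.61 CPM in replicate 1 and at most 0.13 CPM in the rest. Replicate 1 also had 53121 (KD) and 52077 (NC) genes with a count, against 30641 to 32311 in the rest.

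The members were abundant in SEM. All 49 passed the filter on low counts, with total counts over the 6 libraries from 121 (NUSAP1) to 100348 (MKI67). Per kilobase of exon, the median member was at 33.5 CPM, against 4.91 CPM for the median of 16929 tested genes, which placed it at percentile 88.8. LMNB1, a lamin of the nuclear envelope that mitotic entry takes apart, was the highest at 203 CPM per kilobase (168 to 223 over the libraries, percentile 98.4). Next were PTTG1 at 125, SMC4 at 112, TOP2A at 109 and CDC20 at 94.9 CPM per kilobase, and the ranges of PTTG1 (111 to 144), SMC4 (109.9 to 117) and TOP2A (101 to 117) overlapped, so that their order was not resolved. At the other end, CDC25C was at 5.51, PRC1 at 2.28 and NUSAP1 at 0.383 CPM per kilobase, the last at percentile 5.82 of the tested genes. NUSAP1 and PRC1 share 72.8% and 65.2% of their exon bases with a neighbour annotated on the same strand (AC087721.2 and AC068831.7), and 2.58 to 5.94% of each library's records were set aside as ambiguous between genes. What that sharing contributed to the low counts of these 2 genes was not tested.

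**Figure D1:**
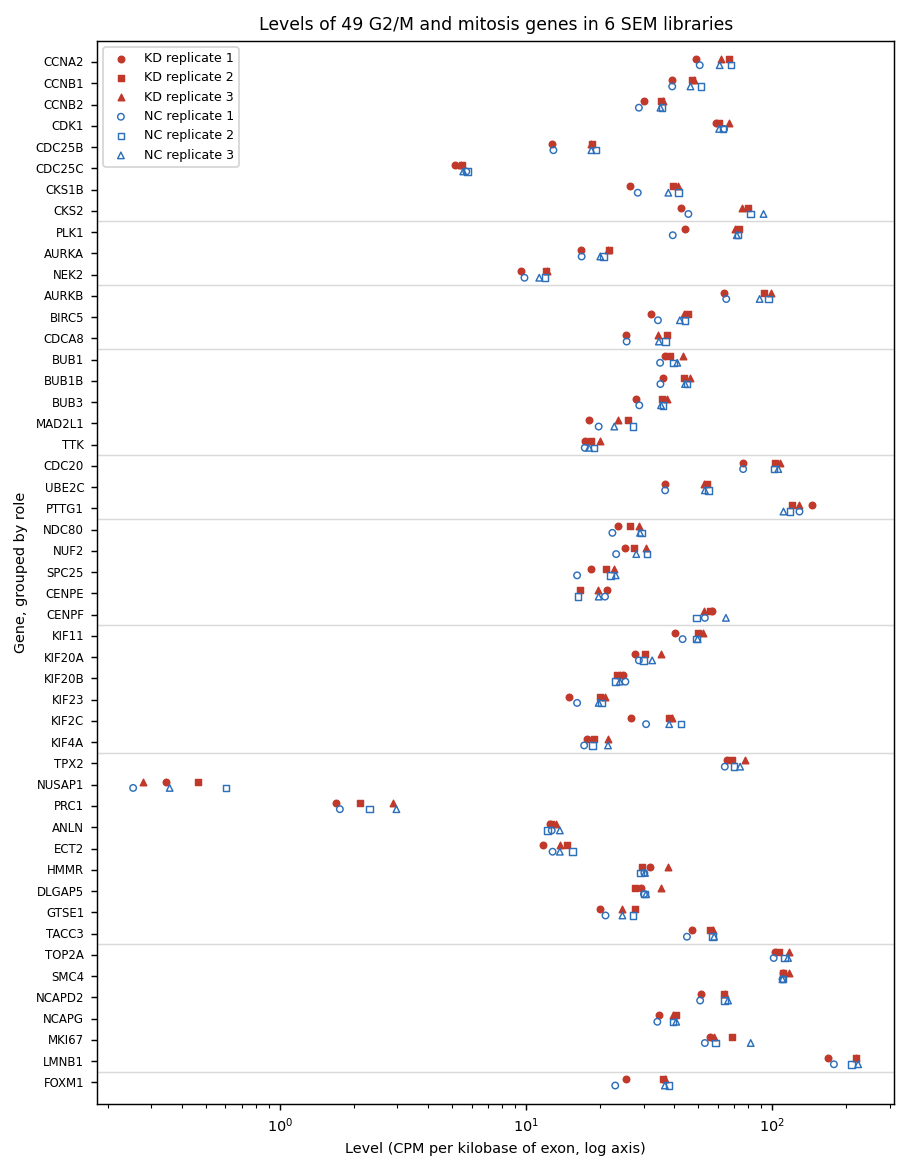
Level of each of the 49 genes in each library (CPM per kilobase of exon, log axis), with genes grouped by role between grey lines, KD libraries as filled and NC libraries as open symbols. LMNB1 is the highest and CDC25C, PRC1 and NUSAP1 the lowest, KD and NC symbols lie together, and the circles of replicate 1 are to the left of the other libraries in both groups for 38 genes.

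Within the machinery, the levels differed between partners. CDK1 was at 62.3 and CCNA2, its S- and G2-phase cyclin, at 59.5 CPM per kilobase, and the B-type cyclins CCNB1 and CCNB2 were lower at 45.3 and 33.4. Of the CDK1 adaptors, CKS2 was at 69.6 and CKS1B at 35.8, and of the activating phosphatases CDC25B was at 16.7 and CDC25C at 5.51 CPM per kilobase, with ranges that did not overlap (12.7 to 19.2 and 5.15 to 5.77). In the chromosomal passenger complex, which corrects faulty attachments, the kinase AURKB was at 84.1, survivin (BIRC5) at 40.3 and borealin (CDCA8) at 32.4 CPM per kilobase. Among the kinetochore genes, the NDC80 complex subunits NUF2, NDC80 and SPC25 lay close together at 27.6, 26.6 and 20.6, and the ranges of NUF2 (23.2 to 30.9) and NDC80 (22.4 to 29.4) overlapped. Of the condensin genes, which compact chromosomes, SMC4, a subunit of both condensin complexes, was at 112, NCAPD2 at 60.1 and NCAPG at 38.2 CPM per kilobase. The checkpoint genes ran from BUB1B at 41.7 and BUB1 at 39.0 through BUB3 at 33.5 and MAD2L1 at 22.8 to TTK at 18.3.

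These orders depend on the length that a gene is given. With the median length of the gene's coding transcripts in place of all its exons, the order of the 49 was kept closely (Spearman's rho 0.94 across genes, which are not independent), but 7 genes moved by more than 1.5 times. BUB3 went from 33.5 to 193, CENPF from 55.5 to 106, UBE2C from 48.2 to 87.9, CKS1B from 35.8 to 64.8, CCNB2 from 33.4 to 57.9, TACC3 from 53.5 to 86.4 and NEK2 from 11.1 to 17.1 CPM per kilobase. BUB3 then stood above PTTG1 (160.9), SMC4 (140.4), TOP2A (109.2) and CDC20 (100.5), and CENPF above CDC20. CKS1B came close to CKS2 (69.6). The order of the highest genes below LMNB1, of CCNB1 and CCNB2, and of the checkpoint genes is therefore not settled by these counts. Counts could also be shared with near-identical copies. The copy with the largest share was UBE2CP5, with 4.71% as many counts as UBE2C, followed by CDC20P1 with 1.94% of CDC20 and CKS1BP3 with 1.04% of CKS1B, and each other copy examined had under 1%. On the opposite strand, LCORL covers 35.0% of the exon bases of NCAPG and TRIM59 covers 23.9% of those of SMC4, and the strand setting of the counting is not given in the sources used here.

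The promoters of these genes are known for a shared layout, in which CCAAT boxes, bound by the factor NF-Y, stand a short way before a cell-cycle homology region (CHR) that the MuvB complex binds close to the start of transcription. RefSeq promoters (build GRCh38.p14, 250 bases before to 50 after the first listed start) were matched for 42 of the 49 genes; AURKA, BIRC5, BUB3, TTK, UBE2C, TPX2 and FOXM1 had no entry. Searched on both strands, a CHR (TTTGAA or TTCGAA) was present in 30 of 42 promoters (71.4%), against 11.5% of the promoters of 10938 tested genes. A CHR that begins within 50 bases of the start was present in 24 of 42 (57.1%) against 3.26%. At least 1 CCAAT was present in 71.4% against 37.2%, and 2 or more CCAAT together with a CHR near the start in 13 of 42 (31.0%) against 0.594%. The count at any listed start instead of the first was 27 of 42 (64.3%) against 4.91% for the CHR near the start. Among the G1/S and DNA replication genes, which peak earlier in the cycle, 0 of 41 promoters held a CHR near the start, while 56.1% held a CCAAT. A match is a description of the letters in this window and not a measured binding site.

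Below are 4 of these promoters, each with the 150 bases that end just before the listed start, 5′ to 3′ on the strand of the gene, with CHR and CCAAT matches (on either strand) in capitals. They were taken from promoters in which no annotated exon overlaps the stretch. They show the shared layout (CKS2, KIF11), a promoter with a pair of CHR matches from the gene with the most counts (MKI67), and a promoter with CCAAT matches only in these bases (CENPF, whose CHR lies after the start).
CKS2, chr9:89311045-89311194, plus strand: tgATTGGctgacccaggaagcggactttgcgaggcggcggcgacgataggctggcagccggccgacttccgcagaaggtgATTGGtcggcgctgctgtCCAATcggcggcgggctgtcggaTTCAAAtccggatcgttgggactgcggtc
KIF11, chr10:92592980-92593129, plus strand: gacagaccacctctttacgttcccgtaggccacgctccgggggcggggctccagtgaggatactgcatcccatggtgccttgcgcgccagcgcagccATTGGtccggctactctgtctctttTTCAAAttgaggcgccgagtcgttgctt
MKI67, chr10:128126424-128126573, minus strand: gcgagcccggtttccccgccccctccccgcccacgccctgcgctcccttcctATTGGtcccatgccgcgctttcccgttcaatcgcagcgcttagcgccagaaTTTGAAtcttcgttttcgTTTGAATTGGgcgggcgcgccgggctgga
CENPF, chr1:214603045-214603194, plus strand: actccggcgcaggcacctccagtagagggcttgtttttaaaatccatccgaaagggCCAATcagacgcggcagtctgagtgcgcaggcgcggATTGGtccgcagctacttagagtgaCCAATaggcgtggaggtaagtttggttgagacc
In CKS2, CCAAT letters occur 3 times and are followed by 1 CHR close to the start. KIF11 has 1 of each. The sequences of MKI67 and CENPF hold 2 and 3 CCAAT matches.

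**Figure D2:**
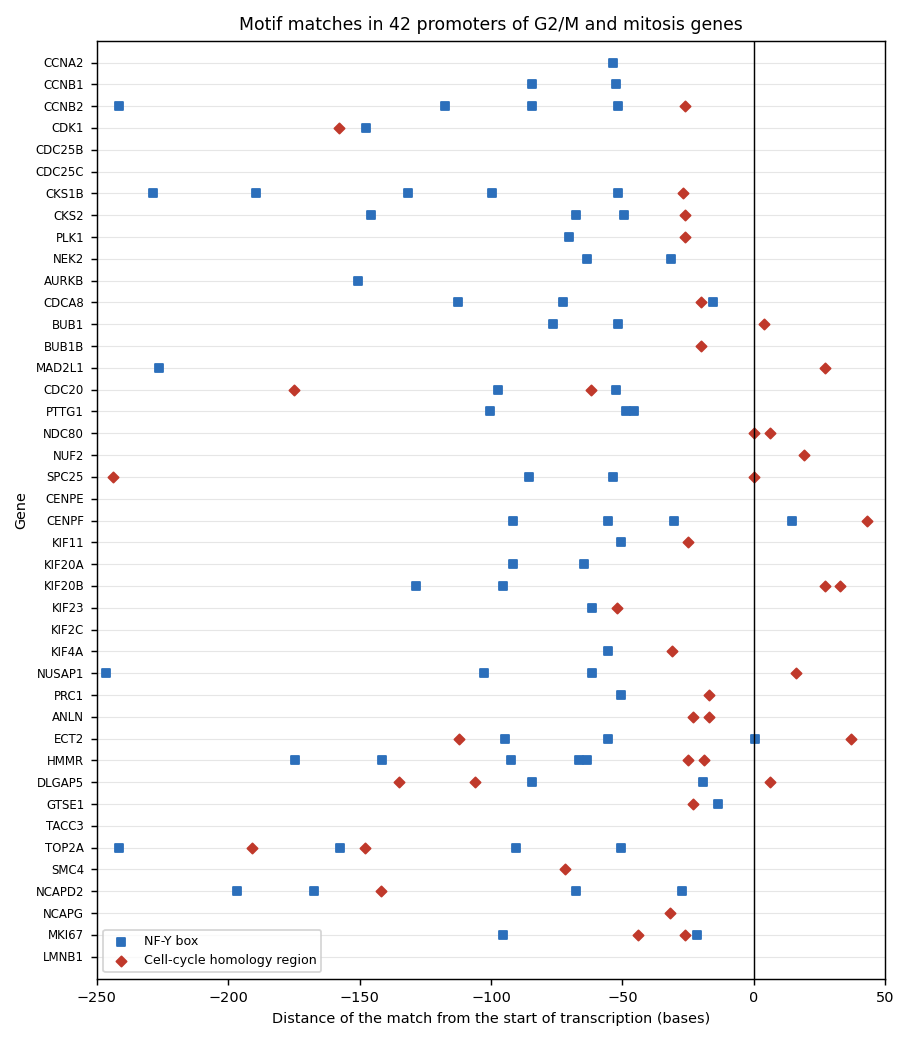
Position of each NF-Y box (blue squares) and cell-cycle homology region (red diamonds) match relative to the first listed start of transcription, in bases, for the 42 genes with a RefSeq promoter. Of 69 NF-Y box matches 68 begin before the start, with a median of 75 bases before it. Of the 29 homology regions that begin from 50 bases before the start onward, 19 begin before it. The median of these 29 is 22 bases before the start, but they were selected by position, so their closeness to the start is set by that choice. Other homology regions begin further upstream, among them those of TOP2A, CDC20, CDK1 and NCAPD2.

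The knock-down was compared with the control to ask whether the RNA of the mitotic genes differs when AK_8_2 is targeted. AK_8_2 itself cannot be read from gene counts, so the depth of its knock-down is not known here. No G2/M and mitosis gene passed an adjusted p of 0.05 by the quasi-likelihood test of edgeR, adjusted after Benjamini and Hochberg, in either direction, whether or not the replicate number was a term (0 of 49 both times). Over all 16929 tested genes the test without that term called 0 (0.0%), with 52 genes at an unadjusted p under 0.05, and DESeq2 and limma-voom also called 0. With the replicate number as a term, called the paired fit below, 29 genes (0.171%) were called, 24 of them higher in KD, and no member was among them. At an unadjusted p under 0.05 the paired fit held 2 of the 49, PTTG1 and HMMR, which is 4.08% against 4.97% of all tested genes; the fit without the term held none.

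The differences were small. The paired log2 fold changes ran from -0.15 (NUSAP1) to 0.13 (PTTG1), with 24 above 0 and 25 below, a median of -0.002 and an interquartile range of -0.015 to 0.022, against a median of -0.005 and a range of -0.087 to 0.072 for all tested genes. For 43 of the 49, the 95% interval of the paired fit lay wholly within a change of 1.2-fold in either direction (87.8%, against 40.9% of all tested genes), and for 26 within 1.1-fold. Without the term the intervals were wider, and 4 of 49 lay within 1.2-fold and 45 within 1.5-fold. The median standard error was 0.054 in the paired fit and 0.14 without the term, against 0.11 and 0.21 over all genes, which also have lower counts.

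**Figure D3:**
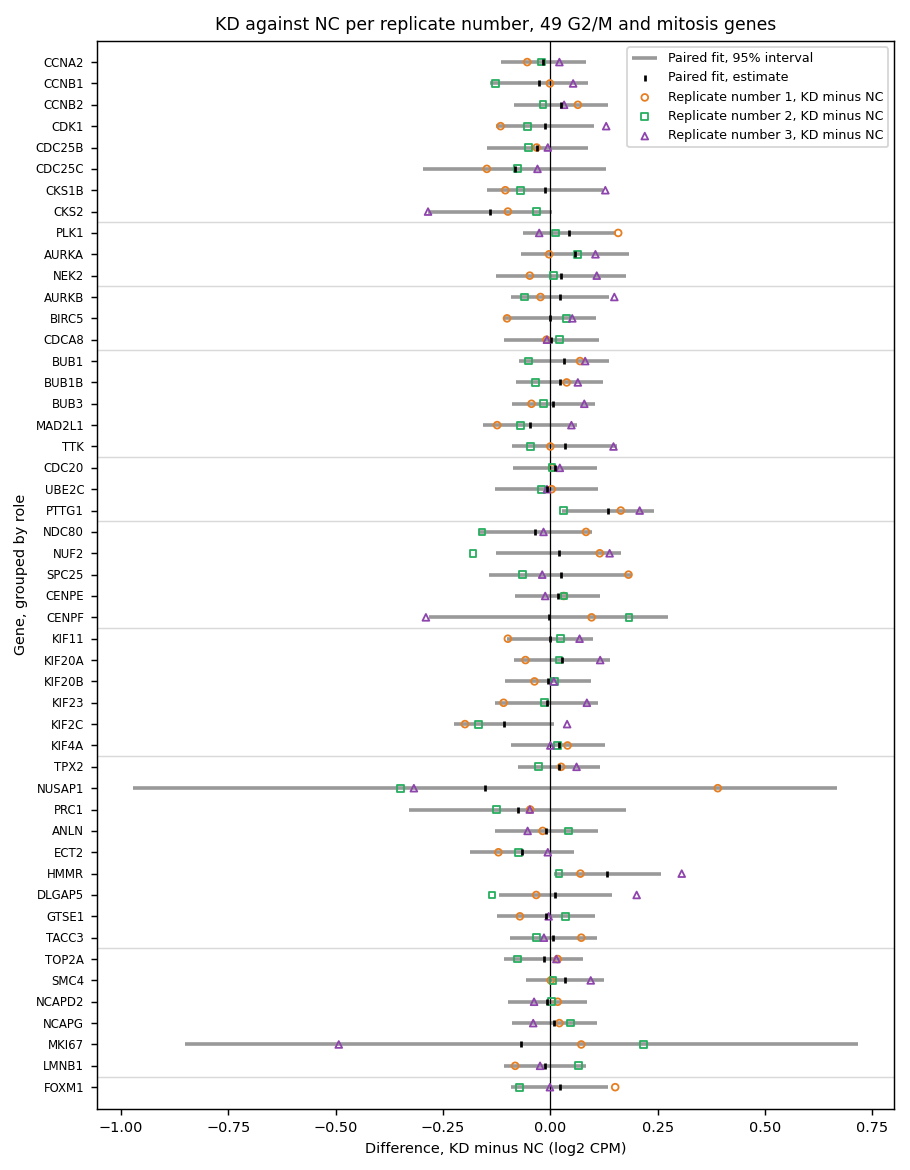
KD minus NC in log2 CPM for each of the 49 genes at each replicate number (open symbols), with the estimate (black tick) and 95% interval (grey bar) of the paired fit. The intervals of PTTG1 and HMMR are the only ones that do not include 0, and those of MKI67 and NUSAP1 are the widest.

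Around CDK1, the values were flat. CDK1 (chr10:60778331-60794852, GENCODE 29 on GRCh38, as for the gene positions that follow) had 119.7, 124 and 136 CPM in KD replicates 1 to 3 and 129.8, 128 and 124 CPM in NC replicates 1 to 3, a log2 fold change of -0.012 (standard error 0.093). CCNB1 (chr5:69167010-69178245) had 84.8, 102 and 105 CPM in KD and 84.9, 112 and 101 CPM in NC (-0.028, standard error 0.14). The groups overlap for both genes, and replicate 1 of each group is the lowest for CCNB1. CCNB2 had 80.7, 95 and 96.7 CPM in KD and 77.2, 96.1 and 94.5 CPM in NC (0.024, standard error 0.13). CCNA2 had 137, 187 and 174 CPM in KD and 142, 189.7 and 171 CPM in NC (-0.015, standard error 0.16). These estimates are from the fit without the replicate term, in which the adjusted p was 1.0 for each by edgeR's quasi-likelihood test. In the paired fit the standard errors were smaller, at 0.055 (CDK1), 0.054 (CCNB1), 0.052 (CCNB2) and 0.047 (CCNA2).

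Of the CDK1 adaptors, CKS2 (chr9:89311198-89316703) had the most negative paired estimate after NUSAP1. Its levels were 26.1, 48.9 and 46.3 CPM in KD and 28.0, 50.1 and 56.5 CPM in NC, lower in KD at every replicate number, although the groups overlap. The log2 differences were -0.099, -0.033 and -0.285, and only the last was beyond the counting error (95% interval from the counts). Without replicate pair 3 the paired estimate was -0.054. The paired log2 fold change was -0.14 (standard error 0.069, 95% interval -0.29 to 0.004, adjusted p = 0.999 by edgeR's quasi-likelihood test). CKS1B had 39.1, 58.8 and 61.2 CPM in KD and 42.1, 61.7 and 56.0 CPM in NC, and its paired estimate was -0.012 (standard error 0.064). CDC25C (chr5:138285265-138338355), a phosphatase that activates CDK1, had 13.2, 14.1 and 14 CPM in KD against 14.7, 14.8 and 14.3 CPM in NC. It was the 1 member of 49 whose groups did not overlap, all KD below all NC, against 1.77% of all tested genes, and no member had all KD above all NC, against 1.67%. Its paired log2 fold change was -0.083 (standard error 0.10, adjusted p = 0.999 by edgeR's quasi-likelihood test).

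The mitotic kinases gave estimates near 0. PLK1 (chr16:23677656-23690367) had 98, 162 and 157 CPM in KD and 87.8, 161 and 159.7 CPM in NC, with replicate 1 the lowest of each group, and a paired log2 fold change of 0.044 (standard error 0.052). AURKA had 45.8, 59.0 and 58.9 CPM in KD and 45.9, 56.4 and 54.7 CPM in NC, with a paired estimate of 0.058 (standard error 0.060). AURKB had 84.1, 122 and 129.6 CPM in KD and 85.5, 127 and 117 CPM in NC, with a paired estimate of 0.022 (standard error 0.054). KD and NC overlap for all 3 kinases. BIRC5, a partner of AURKB in the passenger complex, had 102, 145 and 139 CPM in KD and 109, 141 and 134 CPM in NC (-0.002, standard error 0.051). The adjusted p was 0.999 for each of these 4 genes by the paired edgeR quasi-likelihood test. NEK2, a kinase that splits the centrosomes, and the checkpoint genes BUB1, BUB1B, BUB3, MAD2L1 and TTK had paired estimates from -0.047 to 0.033.

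In the anaphase-promoting pathway, CDC20, which activates the complex, had 139.6, 187 and 196 CPM in KD and 139, 186 and 193 CPM in NC. The 2 groups were nearly superimposed at each replicate number (paired estimate 0.010, standard error 0.046). PTTG1 (chr5:160421822-160428744), also called securin, the inhibitor of separase, had 166, 138 and 148 CPM in KD and 148, 136 and 128 CPM in NC. It was higher in KD at all 3 replicate numbers, by 0.16, 0.031 and 0.21 on the log2 scale, and the groups overlap. Its paired log2 fold change was 0.13 (standard error 0.051, 95% interval 0.027 to 0.24, unadjusted p = 0.0173 and adjusted p = 0.878 by edgeR's quasi-likelihood test). UBE2C, the ubiquitin-conjugating enzyme of the complex, had a paired estimate of -0.009 (standard error 0.057).

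HMMR (chr5:163460203-163491945), a microtubule-binding protein of the spindle pole, was the other member with an interval above 0. It had 104, 97.3 and 123 CPM in KD and 99.3, 96.0 and 99.9 CPM in NC. The third replicate carried most of the difference, at 0.31 against 0.070 and 0.020 on the log2 scale. The paired log2 fold change was 0.13 (standard error 0.059, adjusted p = 0.982 by edgeR's quasi-likelihood test). KIF2C, a kinesin that depolymerises microtubules, had 86.4, 123 and 127 CPM in KD and 99.2, 138 and 123 CPM in NC (paired estimate -0.11, standard error 0.055). Its KD values were below NC at replicate numbers 1 and 2 and above at 3. NUSAP1, a spindle microtubule bundler, had 0.844, 1.14 and 0.682 CPM in KD and 0.622, 1.48 and 0.874 CPM in NC, too few counts (121 in all) for a narrow interval (-0.97 to 0.67). PRC1, which bundles the central spindle, had 7.04, 8.80 and 12.0 CPM in KD and 7.27, 9.61 and 12.4 CPM in NC (paired estimate -0.076, standard error 0.12).

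In the paired fit, the genes of chromosome structure gave the tightest and one of the widest estimates. The values in parentheses below are from that fit. TOP2A, which untangles sister chromatids, had 590.3, 613 and 673 CPM in KD and 584, 646 and 667 CPM in NC (-0.015, standard error 0.044). SMC4 had 721, 726 and 767 CPM in KD and 719.9, 723 and 719 CPM in NC (0.034, standard error 0.043). LMNB1 had 499, 652 and 652 CPM in KD and 528, 623 and 663 CPM in NC (-0.013, standard error 0.045). The groups overlap for all 3. FOXM1, the transcription factor of the programme, had 93.1, 132 and 134 CPM in KD and 83.8, 138 and 134 CPM in NC (0.022, standard error 0.054).

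MKI67 (chr10:128096659-128126385), the gene of the proliferation antigen Ki-67, had the widest paired interval of the members after NUSAP1. It had 708, 867 and 736 CPM in KD and 674, 746 and 1036 CPM in NC, so that KD was higher by 0.072 and 0.22 on the log2 scale at replicate numbers 1 and 2 and lower by 0.49 at 3 (log2 difference -0.49). The paired estimate was -0.068 (standard error 0.20) and its 95% interval ran from -0.85 to 0.72. CENPF, a long kinetochore protein, had the same signs, at 0.096, 0.18 and -0.29. Both have long transcripts, of 12678 and 10343 exon bases. Among the 211 tested genes of at least 10000 exon bases and 100 CPM, the median differences at the 3 replicate numbers were 0.003, 0.13 and -0.21, and 191 of 211 were lower in KD at replicate number 3. MKI67 was the 25th lowest of them there and CENPF the 74th. Across 12216 tested genes, exon length and the replicate 3 difference had a Spearman's rho of -0.28, a description over genes that share their libraries. Across the 49 members rho was -0.18, and CENPE, the next longest member (8615 exon bases), was at -0.012 there. What length contributed was not tested. KD replicate 3 is also the library with the highest shares of multiply aligned records and of mitochondrial ribosomal RNA, given above; their part in these differences was not tested.

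Taking each replicate number on its own, the median member differed by -0.001, -0.020 and 0.021 on the log2 scale, and 24, 21 and 28 of the 49 were higher in KD. Differences beyond the counting error (95% interval from the counts) were found for 11, 11 and 17 members at replicate numbers 1, 2 and 3, or 22.4, 22.4 and 34.7%, against 22.5, 25.1 and 26.8% of all tested genes. KD was higher at all 3 replicate numbers for 5 members, PTTG1, SMC4, CDC20, HMMR and KIF4A (10.2% against 13.1% of all tested genes). It was lower at all 3 for another 5, CKS2, CDC25B, ECT2, CDC25C and PRC1 (10.2% against 12.6%). Neither share is above that of all tested genes. Some of these differences were near 0 and within the counting error. CDC20 was higher by at most 0.022, SMC4 by 0.001 at replicate number 1 and KIF4A by 0.0 at 3. CDC25B and ECT2 were each at -0.006 at replicate number 3. By role, 7 of the 8 genes around cyclin B and CDK1 had a paired estimate below 0, and PLK1, AURKA and NEK2 had one above 0, as 48.0% of all tested genes did; none was called.

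**Figure D4:**
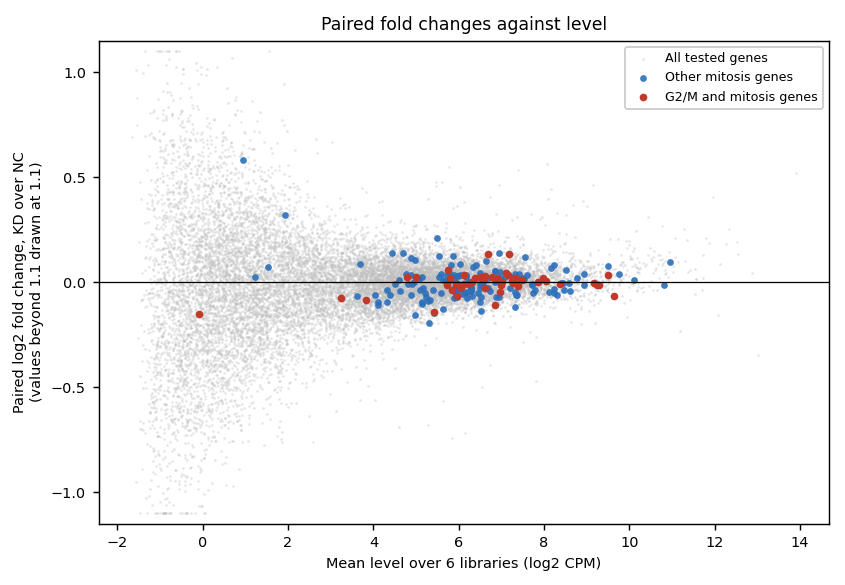
Paired log2 fold change of KD over NC against mean level (log2 CPM over the 6 libraries) for all 16929 tested genes (grey), the 145 other mitosis genes (blue) and the 49 G2/M and mitosis genes (red). Grey points beyond 1.1 are drawn at that value, and the red points lie between -0.15 (NUSAP1, the lowest in level) and 0.13 (PTTG1).

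Other genes of the pathway were taken from a list of 145, among them condensin and cohesin subunits, inner and outer kinetochore proteins, subunits of the anaphase-promoting complex, B-MYB and MuvB genes, and further spindle and midbody genes. None of the 145 was called in either fit (0 of 145), and the median paired log2 fold change was -0.008. In the paired fit 8 were at an unadjusted p under 0.05, which is 5.52% against 4.97% of all tested genes. Without the term 1 of the 145 was, against 52 of all 16929 tested genes. The 3 smallest p-values with a positive estimate belonged to CCDC34 (46.7, 44.6 and 53.8 CPM in KD against 43.6, 39.8 and 41.8 in NC, paired estimate 0.21, adjusted p = 0.625 by edgeR), SKA2 and ENSA. SKA2, of the complex that couples kinetochores to microtubules, was at 0.14 and ENSA, an inhibitor of the phosphatase that opposes CDK1, at 0.12. Those with a negative estimate belonged to G2E3 (37.8, 35.9 and 36.8 CPM in KD against 42.5, 40.8 and 43.3 in NC, paired estimate -0.20, adjusted p = 0.67 by edgeR), RBL2 and KNTC1. RBL2, a pocket protein that joins MuvB as a repressor, was at -0.14 and KNTC1, a recruiter of dynein to kinetochores, at -0.12. The KD and NC values did not overlap for 6 of the 145: CCDC34 and PIMREG had all KD above all NC (1.38% against 1.67% of all tested genes), and G2E3, CENPK, KIF18A and SMC2 had all KD below (2.76% against 1.77%). The last 3 and PIMREG were named after their values were seen. Among 50 G1/S and DNA replication genes, 0 were called and the median paired estimate was 0.002.

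The members differed more between replicate numbers than between KD and NC. Both replicate 1 libraries lay below the other 4 for 38 of the 49 genes (77.6%), against 29.6% of all tested genes, and above them for 3, PTTG1, KIF20B and CENPE (6.12% against 31.0%). The median member was lower by 0.30 on the log2 scale in replicate 1 (log2 difference -0.30), at -0.27 in KD and -0.31 in NC. The largest were CKS2 at -0.89, PLK1 at -0.79 and FOXM1 at -0.60, followed by PRC1 at -0.56 and by UBE2C and CKS1B at -0.55, while CDK1 was at -0.035 and SMC4 at -0.027. The members' values in KD and in NC followed each other (Spearman's rho 0.78 across the 49 genes, against 0.89 across 12216 tested genes). The size depends on the scaling: by upper quartile or total gene counts the median over all genes moved to 0.20 and 0.21, the members' median to -0.12 and -0.11, and the number of members below the other 4 to 27 and 24. The members' median minus that of all genes was -0.32, a difference that a scaling factor cannot change. Of the 7503 tested genes at 20 CPM or more, 55.9% were below the other 4 by TMM scaling, with a median of -0.18. By upper quartile 27.8% were (median 0.006), and by total gene counts 24.4% (median 0.016). The other mitosis genes (63.4%) and the G1/S genes (68.0%) were below the other 4 as well. The replicate 1 libraries have the largest share of records in no feature, given above, and its part in these levels was not tested.

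**Figure D5:**
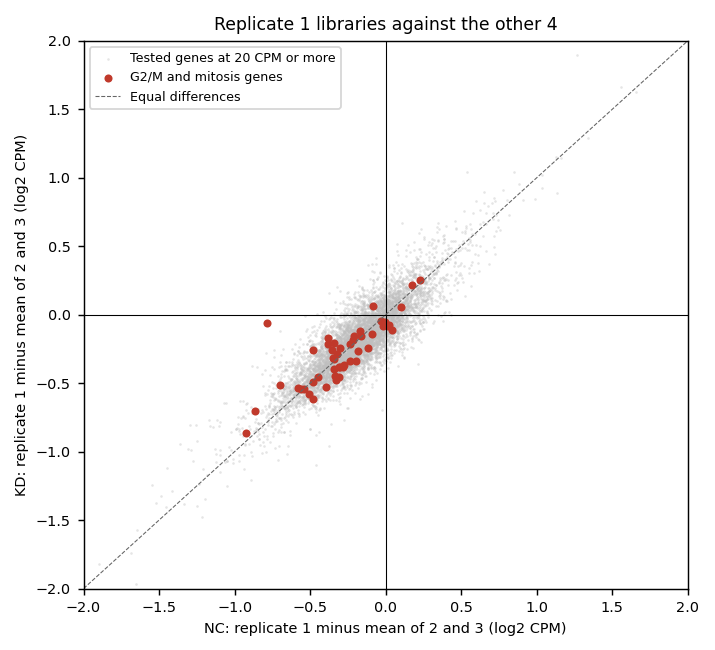
Replicate 1 minus the mean of replicates 2 and 3 (log2 CPM), with NC on the horizontal and KD on the vertical axis, for tested genes at 20 CPM or more (grey) and the 49 genes (red); a few grey genes beyond 2 in either direction are not shown. Most red points lie in the lower left and near the dashed line of equal differences, down to CKS2 at -0.89.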

How the data were processed

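The authors deposited raw read counts per gene for 6 SEM libraries (3 KD, 3 NC). Per the submitters' processing notes the tools named are STAR 2.7.10a, HTSeq 0.11.1, DESeq2 and FastQC 0.11.8, and the build is hg38; the sources used here do not give the annotation release, strand setting or trimming. The 5 summary lines of each table were left out of library sizes. The 62703 identifiers per table were named from the reference tables (42342 with a symbol), and exon lengths came from GENCODE 29 (58264 matched). Counts were tested with edgeR 4.0.16 (R 4.3.3; filterByExpr, TMM, quasi-likelihood test, adjusted p threshold 0.05, Benjamini-Hochberg) on all 16929 tested genes, without and with the replicate number. The deviations from the group means correlated within numbers at 0.889, 0.619 and 0.605, and between numbers 2 and 3 at 0.59 and 0.553, so numbers 2 and 3 were barely told apart; all 3 pairs were kept, and the common biological coefficient of variation fell from 0.372 to 0.0683 with the pairing. Within-number log2 differences used a prior count of 2, and the 95% counting interval covers counting error only. DESeq2 1.42.0 and limma 3.58.1 were alternatives. Only the edgeR fits, without and with the replicate number, were run on simulated counts. Those counts were drawn from a model with the replicate number, so they cannot test whether the pairing is right. Named genes were 15 core genes, the 3 largest and 3 most negative paired estimates, those whose groups did not overlap, and the 3 highest and 3 lowest per kilobase; others are named in counts. The members, lists and rules were chosen with earlier results of these data known. Of the B-cell precursor markers, 1 is not reported here.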

Additional observations from a re-analysis of the deposited data

How the results depend on the processing

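No member and none of the other mitosis genes was called under any of the 16 other settings, which left out each library or each replicate pair in turn, used DESeq2 size factors, upper-quartile scaling or no filter, used DESeq2 or limma-voom, added the replicate block, or (chosen after seeing the data) dropped the mitochondrial ribosomal RNAs; the smallest adjusted p of a member was 0.252. Over all genes the count called was 0 without the block and 29 of 16929 with the replicate block. Without pair 1, 2 and 3 it was 5 of 16344, 119 of 29982 and 73 of 29966, so the tested genes differed between these fits. Without the ribosomal RNAs it was 29 of 16773. The cause of the differing counts was not tested. The members' median log2 fold change was 0.003 without the block and -0.002 with it. Leaving out 1 library at a time it ran from -0.096 (without NC replicate 1) to 0.091 (without KD replicate 1). In these settings the replicate 1 libraries, lower for most members, make up unequal parts of KD and NC. The median of all genes itself moved to 0.11 and 0.10 without KD replicates 2 and 3 and to -0.11 and -0.094 without NC replicates 2 and 3. There the members' median moved the other way, to -0.068 and -0.09 without those KD libraries and 0.075 and 0.078 without those NC libraries. The members' median minus that of all genes was then -0.177 and -0.193, and 0.18 and 0.173. Of 352 alternative values for 22 named members, 349 lay within 1 standard error of the unpaired estimate. The 3 beyond it were MKI67 at 0.15 in the block without pair 3 and 0.15 without NC replicate 3, and HMMR at 0.004 without KD replicate 3. The unpaired standard error is a wide yardstick (members' median 0.14, against 0.054 in the paired fit), and the settings share libraries. The count is therefore no test of stability. CKS2 ran from -0.393 (without NC replicate 1) to 0.088 (without KD replicate 1), and PLK1 from -0.204 to 0.233 in the same settings. The sign changed under some setting for 19 of the 22, not for PTTG1, HMMR or CDC25C. Depth limits NUSAP1 (121 counts).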
